A study of Mus musculus with 9 samples.

Results

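The 39 Hox genes of the mouse were described in the lungs of 9 mice, as all symbols of the deposited table that consist of Hox, a cluster letter from a to d and a number. The table held 25526 genes, of which these were 39, with 11 in the Hoxa, 10 in the Hoxb, 9 in the Hoxc and 9 in the Hoxd cluster. There were 3 mice in each of 3 groups, labelled normal, pulmonary fibrosis model (model) and PepNzymeSOD-CAT (nanozyme). PepNzymeSOD-CAT is an inhalable assembly of polypeptides that acts like an enzyme (a nanozyme), with a name taken from superoxide dismutase and catalase, and the series asked how it works against lung fibrosis. Strain, age, genotype, how fibrosis was induced, dosing and sampling times are not given in the sources used here. The labels do not say whether the nanozyme mice also carried the fibrosis model, and no comparison below assumes it. Values are FPKM (fragments scaled to transcript length and to the mapped fragments of the library), which allow levels of different genes to be set side by side because they are scaled to length.

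Hox genes encode transcription factors with a homeodomain, the DNA-binding fold that gives the family its name. They lie in clusters in which the order of the genes on the chromosome follows the order of their expression along the body axis, from low position numbers at the head end to high numbers at the tail end. Genes that share a number in different clusters are paralogues and are often redundant. In the developing lung, Hox genes of the lower-numbered part of the Hoxa and Hoxb clusters are expressed mainly in mesenchyme, and Hoxa5 is needed for the development of the trachea and the lung in mice. Hox proteins bind DNA together with cofactors of the TALE class (Pbx, Meis and Pknox), retinoic acid activates genes at the low-numbered end of the clusters, and Polycomb and trithorax proteins hold them in a silent or an active state.

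In GENCODE vM21, an annotation of GRCm38, the Hoxa cluster lies on chromosome 6 from 52155590 to 52260880, Hoxb on chromosome 11 from 96194316 to 96368256, Hoxc on chromosome 15 from 102921103 to 103036852, and Hoxd on chromosome 2 from 74668310 to 74765142. Hoxa5, the Hox gene with the highest level in these lungs, lies on the minus strand of chromosome 6 from 52201754 to 52204587. Promoter sequences were found for 22 of the 39 genes in RefSeq (GRCm38.p6). The 250 bases before the start are shown for Hoxa5, for 2 further genes that were expressed, and for Hoxa13, which was listed at 0 in all 9 libraries, so that start regions of members with and without a measured level can be read side by side. Capitals mark matches on either strand to AGGTCA, the core site of retinoic acid receptors, to TGATTNAT, a site bound by Hox and Pbx proteins together, or to TATAAA, the TATA box.
Hoxa5 (chr6:52204588-52204837, minus strand): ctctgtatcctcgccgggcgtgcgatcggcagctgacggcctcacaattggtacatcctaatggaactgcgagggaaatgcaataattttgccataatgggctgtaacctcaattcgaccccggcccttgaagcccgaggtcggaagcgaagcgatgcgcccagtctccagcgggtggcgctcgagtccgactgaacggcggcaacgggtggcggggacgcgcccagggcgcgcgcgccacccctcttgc
Hoxa2 (chr6:52164832-52165081, minus strand): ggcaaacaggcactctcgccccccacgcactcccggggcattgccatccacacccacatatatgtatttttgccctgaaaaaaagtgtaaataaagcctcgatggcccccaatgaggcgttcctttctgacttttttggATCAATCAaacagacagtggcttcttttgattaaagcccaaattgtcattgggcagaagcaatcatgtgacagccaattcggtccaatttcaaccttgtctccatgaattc
Hoxb4 (chr11:96318017-96318266, plus strand): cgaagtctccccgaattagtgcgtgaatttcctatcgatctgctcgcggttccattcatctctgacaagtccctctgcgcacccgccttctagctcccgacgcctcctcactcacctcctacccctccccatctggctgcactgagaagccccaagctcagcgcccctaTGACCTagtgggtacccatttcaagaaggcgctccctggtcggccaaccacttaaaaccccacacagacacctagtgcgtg
Hoxa13 (chr6:52260881-52261130, minus strand): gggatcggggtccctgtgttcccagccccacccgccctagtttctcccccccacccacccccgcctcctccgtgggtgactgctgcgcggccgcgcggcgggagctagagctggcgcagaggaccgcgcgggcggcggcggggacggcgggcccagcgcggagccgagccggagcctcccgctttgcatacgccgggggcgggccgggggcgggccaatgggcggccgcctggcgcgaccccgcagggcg
Among these 4 windows, Hoxa2 held 1 match to the Hox and Pbx site and Hoxb4 held 1 match to the receptor core site, and the other two held no match to any of the 3 motifs. Over the 24 windows of Hox genes, 6 held AGGTCA (25.0%), 2 held TGATTNAT (8.33%) and 4 held TATAAA (16.7%), beside 14%, 2.82% and 12.4% of all 32851 promoter windows. The Hoxa5 window had 28 CG dinucleotides and the Hoxa13 window 35, against a median of 12.5 over the Hox windows and 6 over all windows. The window of the highest member and that of a member listed at 0 were thus both rich in CG. No motif match overlaps another in the 4 windows printed, and a match is a description of the letters, not a bound site.

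The Hox genes that reached the threshold of expression lay in the front and middle of 2 clusters. A gene was counted as expressed where 3 or more of the 9 libraries had 1 FPKM or more. By this rule 11 of 39 Hox genes (28.2%) were expressed, against 14540 of 25526 genes of the file (57.0%). These were Hoxa2, Hoxa3, Hoxa4, Hoxa5 and Hoxa7, and Hoxb2, Hoxb3, Hoxb4, Hoxb5, Hoxb6 and Hoxb7. No gene of the Hoxc or Hoxd cluster reached the threshold. By position, 4 of 8 genes numbered 1 to 3, 7 of 15 numbered 4 to 8 and 0 of 16 numbered 9 to 13 reached it. The Hoxa and Hoxb clusters together supplied 97.3% to 99.2% of the summed Hox FPKM in each library.

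**Figure D1:**
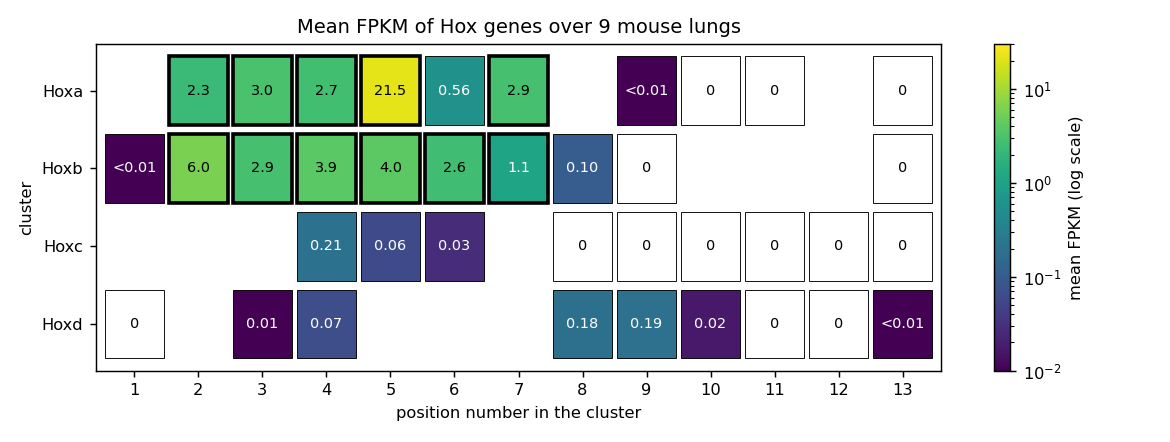
Mean FPKM of Hox genes over the 9 lungs, with the position number on the horizontal axis and the cluster on the vertical axis; colour is on a log scale, thick borders mark the 11 genes at 1 FPKM or more in at least 3 libraries, white boxes are genes listed at 0 in all 9, and gaps are positions with no gene or not shown. Expressed genes fill positions 2 to 7 of Hoxa and Hoxb apart from Hoxa6, and Hoxa5 stands out at 21.5 FPKM.

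Just below the threshold was Hoxa6, which lies between expressed genes, with 0.166 to 0.907 FPKM over the 9 libraries. Just inside it was Hoxb7, with 3 libraries at 1 FPKM or more. A further 12 genes had a value above 0 in at least 1 library. Of these, Hoxd8 (0.0335 to 0.577 FPKM) and Hoxd9 (0.0414 to 0.416 FPKM) were above 0 in all 9, Hoxb8 in 8 (highest 0.242 FPKM), Hoxc4 in 7 (highest 0.809 FPKM), Hoxc5 in 6 (highest 0.168 FPKM) and Hoxd4 in 4 (highest 0.266 FPKM). Hoxa9, Hoxb1, Hoxc6, Hoxd3, Hoxd10 and Hoxd13 were above 0 in 1 or 2 libraries, at 0.134 FPKM or less. Another 14 were listed at 0 in all 9: Hoxa10, Hoxa11, Hoxa13, Hoxb9, Hoxb13, Hoxc8, Hoxc9, Hoxc10, Hoxc11, Hoxc12, Hoxc13, Hoxd1, Hoxd11 and Hoxd12. The high-numbered genes, which pattern the hind body, limbs and urogenital tract, were thus at or near 0 in every group, and the file gives no read counts from which a limit of detection could be set.

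Hoxc5 was listed at 0 in the 3 normal libraries and lay between 0.0302 and 0.107 FPKM in the model and between 0.0442 and 0.168 FPKM in the nanozyme libraries. Hoxc4, its neighbour, was at 0, 0 and 0.0909 FPKM in normal, 0.136 to 0.217 in model and 0.127 to 0.809 FPKM in nanozyme lung. For both genes the normal values were below all others. Hoxd9 went the other way, at 0.200, 0.187 and 0.285 FPKM in normal and 0.184, 0.0488 and 0.0414 FPKM in model lung. Its nanozyme values (0.416, 0.161 and 0.217 FPKM) overlapped the normal ones. How often genes below the threshold separate in this way was not computed, so nothing is read from these separations. These levels are far under the threshold, no fold is given against a group at 0, and with no filter, when all 39 genes were tested, limma called 0 Hox genes in each of the 3 comparisons.

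The libraries themselves differed, which bears on every comparison. On the first principal component of the 14540 genes tested (62.8% of the variance), the score of nanozyme replicate 2 was 43.3, and those of the model libraries ran from 39.5 to 61.2, while the other two nanozyme libraries lay at -14.4 and -9.68 and the normal libraries between -63.5 and -54.8. Model replicate 2 was the lowest of all 9 libraries for 9 of the 11 expressed Hox genes, beside 32.1% of all genes tested. Within its group, nanozyme replicate 2 was the lowest for 10 of the 11, beside 48.2% of all genes tested. Summed over the 39 genes, Hox FPKM was 52.1, 63.1 and 56.3 in normal, 53.5, 26.1 and 45.2 in model, and 78.2, 40.7 and 76.7 in nanozyme replicates 1 to 3. The model and nanozyme replicates numbered 2 had the lowest sums of their groups, and the nanozyme replicates 1 and 3 the highest of all 9. The labelled tissue was checked with 15 lung epithelial markers, which summed to between 87313 and 105749 FPKM in normal, 18220 and 28901 in model and 36943 and 59030 FPKM in nanozyme lung. Scgb1a1 and Sftpc made up most of these sums. For 10 skeletal muscle markers the sums were 24.3, 4.23 and 13.4 FPKM in normal and 3.87, 280 and 2.69 FPKM in model lung. In nanozyme replicates 1 to 3 they were 1242, 4.11 and 5.36 FPKM. For 11 cardiac muscle markers they ran from 147 to 849 in normal, 11.8 to 87.4 in model and 20.0 to 201 FPKM in nanozyme lung. The part of such tissue in the Hox values was not tested.

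Some sums of cell type markers followed the Hox sums over the libraries and others did not. For 17 markers of resident lung fibroblasts, mesenchymal cells of the lung, the summed FPKM was 2226, 2823 and 2620 in normal, 1336, 554 and 1166 in model, and 2967, 1271 and 3455 in nanozyme replicates 1 to 3. Inmt alone gave 1319, 1863 and 1607 FPKM in normal, 439, 90.1 and 226 in model, and 1396, 407 and 2007 in nanozyme lung. The sums are thus weighted to 1 gene and are not an even measure of the 17 markers. The order of the libraries within the model and nanozyme groups put replicate 2 lowest here too. Of these 17 markers, limma called 7 lower and 0 higher in the model against normal lung. For 19 endothelial markers the sums were 1449, 1723 and 1595 in normal and 1302, 696 and 1154 FPKM in model lung. In nanozyme lung they were 1687.5, 1183 and 1807 FPKM, so that replicate 2 was again lowest in the model and nanozyme groups. Of 18 tested, 4 endothelial markers were lower and 2 higher in the model against normal. Leukocyte markers went the other way, from 4494 to 5578 in normal, 11732 to 15912 in model and 8476 to 15741 FPKM in nanozyme lung, with 14 of 17 higher and 0 lower in the model. For 15 smooth muscle and pericyte markers the sums were 587, 429 and 488 in normal, 255, 164 and 174 in model and 401, 190 and 332 FPKM in nanozyme lung, so that the normal libraries ran opposite to their Hox sums, and 8 of 15 were lower and 0 higher in the model. For 9 mesothelial markers the sums were 270, 199 and 229 in normal, 275, 303 and 255 in model and 462, 171 and 367 FPKM in nanozyme lung. The highest model sum, in replicate 2, came from Krt19, the largest part of these sums, at 154, 212 and 120 FPKM in model lung. Msln was nearly level there (59.0, 60.1 and 57.0 FPKM). All other markers of this list were lowest of the model group in replicate 2, as the Hox sum was. Examples are Upk3b (13.5, 8.35 and 18.7 FPKM) and Lrrn4 (6.61, 2.54 and 10.5 FPKM). For 10 haematopoietic progenitor markers the sums were 127.8, 140.3 and 132.6 in normal and 132.5, 89.2 and 131.3 FPKM in model lung. In nanozyme lung they were 171.8, 126.8 and 168.3 FPKM, and Cd34 was the largest part of these sums. Of 7 tested, 2 were higher and 1 lower in the model. A low replicate 2 in both groups was thus not particular to the fibroblast markers. The part of these shifts in the Hox values was not tested, and in whole lung fewer cells of a type and less RNA per cell cannot be told apart.

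**Figure D2:**
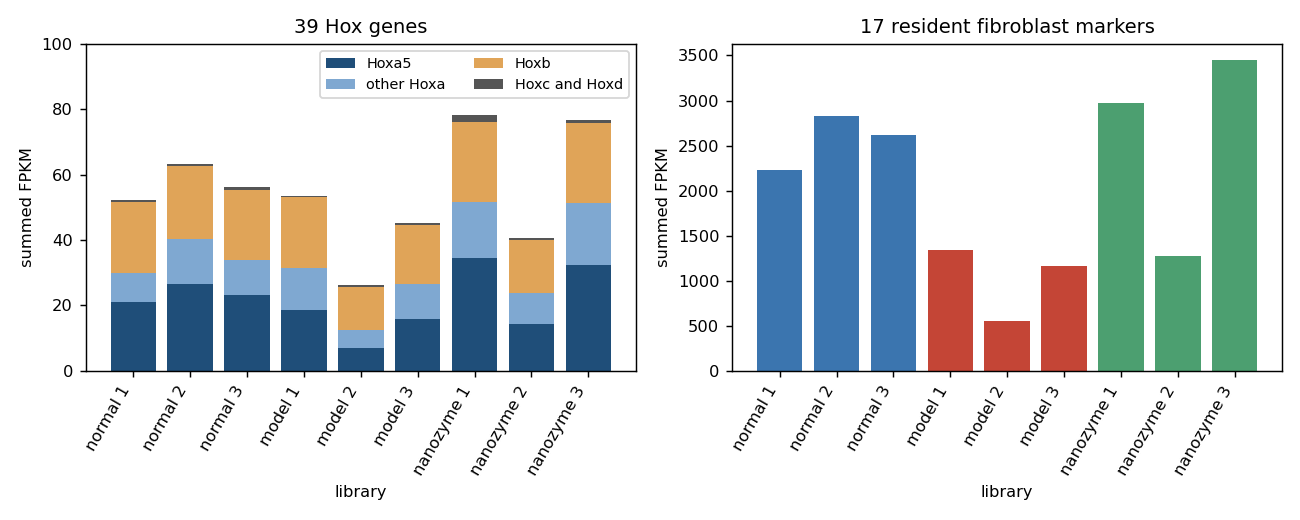
Summed FPKM per library of the 39 Hox genes (left, stacked as Hoxa5, other Hoxa, Hoxb, and Hoxc with Hoxd) and of 17 resident fibroblast markers (right, coloured by group). Model replicate 2 has the lowest sum in both panels (26.1 and 554 FPKM), and nanozyme replicates 1 and 3 have the 2 highest sums in both. Inmt alone gives 1396 and 2007 FPKM of the fibroblast sums of nanozyme replicates 1 and 3. The sums of endothelial and of haematopoietic progenitor markers, not drawn, were also lowest in model replicate 2.

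The comparison of model with normal lung asked what fibrosis changed. Of the 11 expressed Hox genes, limma called 0 higher and 0 lower at an adjusted p under 0.05, where 40.1% of all 14540 genes tested were called (17.4% higher and 22.7% lower). At an unadjusted p under 0.05 there were 2 of 11, against 50.3% of all genes. The estimate was below 0 for 9 and above 0 for 2, with a median log2 change of -0.24 beside -0.12 over all genes tested. The share of all genes below 0 was not computed. Without model replicate 2 the Hox median was -0.032 beside -0.085 over all genes. With limma's sample weights it was -0.028 beside -0.095, so the lower Hox median depended on that library and on the weighting. For 3 genes, Hoxa5, Hoxb5 and Hoxb6, all model values were below all normal values, and for 0 they were all above, where 34.9% and 23.5% of all genes did so (58.5% in either direction). The standard errors of the Hox genes ran from 0.16 to 0.42, and their median over all genes was 0.17.

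Among the genes numbered 2 and 3, the values of model and normal lung overlapped for each of the 4. Hoxa2, which patterns the hindbrain and the second branchial arch in the embryo, was at 1.87, 2.83 and 1.89 FPKM in normal and 2.08, 1.003 and 2.11 FPKM in model lung. Its groups overlapped (log2 change -0.24 ± 0.28, limma adjusted p = 0.518). Hoxa3, needed for the thymus and parathyroid, was at 2.33, 3.11 and 2.62 FPKM in normal and 4.36, 1.60 and 2.59 FPKM in model lung, so that the model held both the highest and the lowest of the 6 values (0.0057 ± 0.29, adjusted p = 0.989). Hoxb2 was at 6.82, 5.45 and 5.90 FPKM in normal and 6.31, 5.23 and 6.27 FPKM in model lung, with overlap (-0.02 ± 0.19, adjusted p = 0.931). The 95% interval of its log2 change ran from -0.46 to 0.41. For Hoxb3 the values were 3.24, 2.92 and 2.66 against 3.14, 1.31 and 2.44 FPKM, with model replicates 2 and 3 below the normal range and replicate 1 within it (-0.30 ± 0.23, adjusted p = 0.330). The direction of Hoxb2 flipped with quantile normalization (0.050), with columns scaled to equal sums (0.043) and with median-of-ratios scaling (0.10), and that of Hoxa3 with a pseudocount of 0.1 (-0.017).

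The 3 genes whose groups did not overlap were numbered 5 and 6. Hoxa5, which is required for tracheal and lung morphogenesis, was at 21.1, 26.4 and 23.2 FPKM in normal and 18.6, 6.84 and 15.8 FPKM in model lung. The groups did not overlap, and the means were 23.6 ± 2.67 and 13.7 ± 6.12 FPKM (SD, n = 3), with model replicate 2 far below the other two. The log2 change was -0.84 ± 0.40 with a 95% interval from -1.76 to 0.08 (adjusted p = 0.127). Hoxb5, its paralogue, was at 4.54, 5.61 and 5.08 FPKM in normal and 4.10, 1.82 and 2.53 FPKM in model lung, again without overlap. This was the smallest adjusted p of the family in this comparison (-0.71 ± 0.25, interval -1.29 to -0.13, adjusted p = 0.0526). Hoxb6 was at 3.01, 3.06 and 3.24 FPKM in normal lung, a narrow range, and at 2.44, 1.33 and 2.17 FPKM in model lung (-0.48 ± 0.18, interval -0.88 to -0.08, adjusted p = 0.0589). All 3 estimates kept their sign under every alternative run that tested the gene.

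Those 2 Hoxb genes lay so near the threshold that the choice of libraries decided the call. Without model replicate 1, Hoxb5 (adjusted p = 0.0195) and Hoxb6 (0.0425) passed, and without nanozyme replicate 2, which enters only the shared estimate of the spread, they passed as well (0.0292 and 0.0400). Without model replicate 2 and nanozyme replicate 2 together, an alternative chosen after the data were seen, Hoxa5 (-0.44, adjusted p = 0.0246) and Hoxb6 (-0.31, 0.0462) passed, while Hoxb5 did not. The shares of all genes called in these 3 fits were 37.5%, 45.3% and 45.8%.

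The remaining members overlapped between the groups. Hoxa4 was at 2.47, 2.42 and 2.68 FPKM in normal and 2.74, 1.63 and 2.73 FPKM in model lung (-0.08 ± 0.20, adjusted p = 0.765). Hoxb4, known for its role in blood stem cells, was at 3.69, 4.23 and 3.64 FPKM in normal and 4.74, 2.58 and 3.77 FPKM in model lung (-0.07 ± 0.18, adjusted p = 0.772). For both, model replicate 2 alone was below the normal range, and without it the estimates were above 0 (0.085 and 0.11), as they were with median-of-ratios scaling (0.018 and 0.040) and quantile normalization (0.014 and 0.023). Hoxa7 varied most among normal mice, at 1.07, 4.15 and 2.64 FPKM, and was at 2.39, 0.566 and 1.79 FPKM in model lung (-0.46 ± 0.42, adjusted p = 0.405). Hoxb7, near the threshold of expression, was at 0.447, 0.970 and 0.889 FPKM in normal and 0.772, 0.911 and 0.957 FPKM in model lung (0.10 ± 0.16, adjusted p = 0.641).

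**Figure D3:**
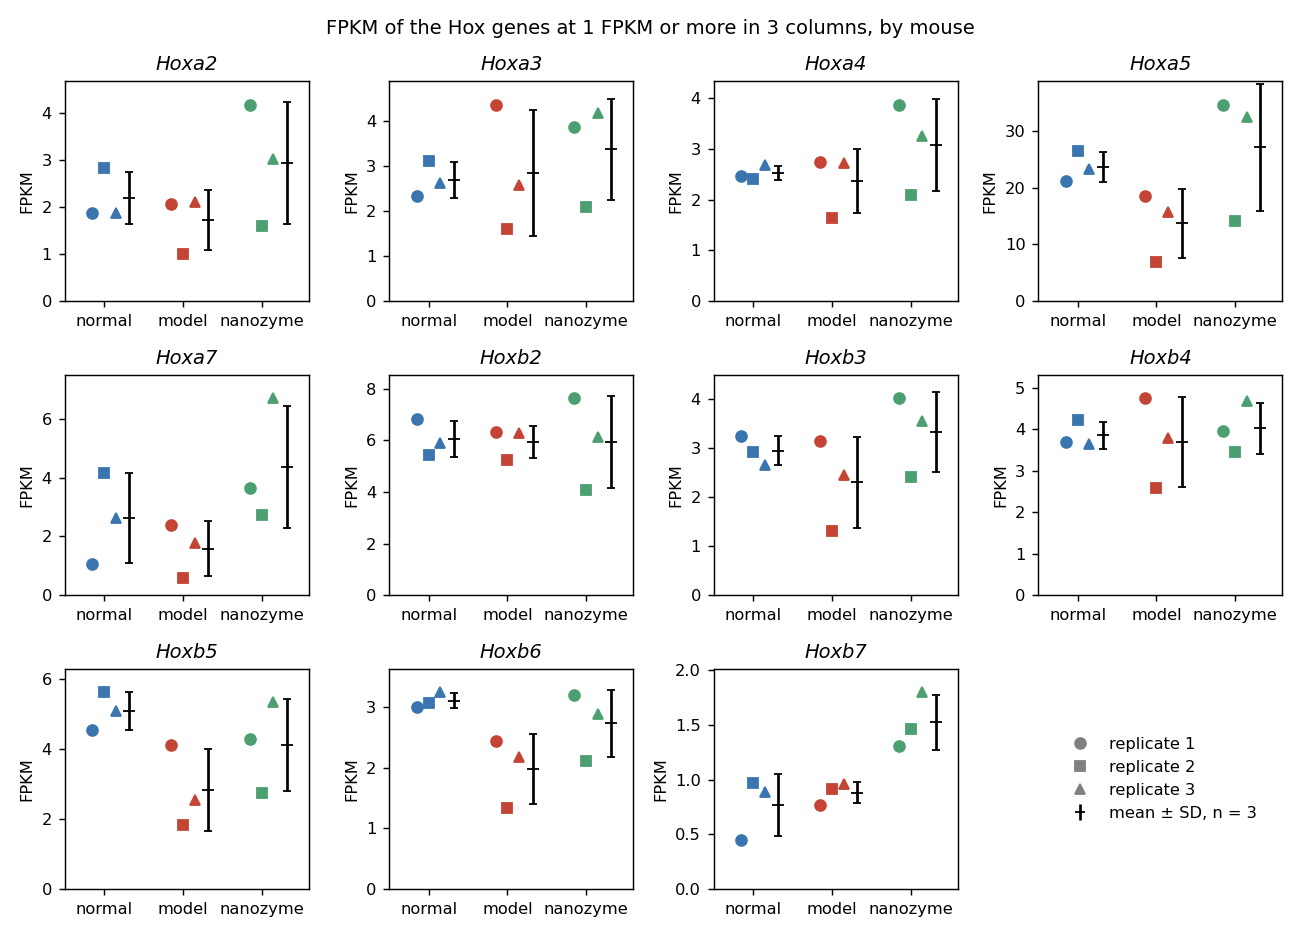
FPKM of the 11 expressed Hox genes in each mouse, by group, with 1 panel per gene, 1 symbol per replicate number and black bars for mean ± SD (n = 3); vertical axes start at 0 and differ between panels. The squares of model and nanozyme replicate 2 are usually the lowest of their groups. Of the 11, only Hoxa5, Hoxb5 and Hoxb6 separate model from normal lung without overlap, beside 58.5% of all genes tested.

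The share of Hoxa5 within the family differed as well. It made up 40.6%, 41.9% and 41.3% of the summed Hox FPKM in normal lung and 34.7%, 26.2% and 34.9% in model lung. Every model library was below every normal one. Over the other 38 genes the sums were 31.0, 36.7 and 33.1 FPKM in normal and 35.0, 19.3 and 29.4 FPKM in model lung, which overlapped. In nanozyme lung Hoxa5 made up 44.2%, 34.9% and 42.3%. The ratio of Hoxa5 to its paralogue Hoxb5 lay between 4.58 and 4.71 in normal lung, between 3.75 and 6.22 in model lung and between 5.20 and 8.10 in nanozyme lung, so that the 3 nanozyme libraries were above the 3 normal ones. For the other ratios computed, nanozyme and normal lung overlapped. Hoxa5 to Hoxa4 was 8.55 to 10.9 in normal, 4.19 to 6.78 in model and 6.79 to 9.99 in nanozyme lung. Hoxa7 to Hoxb7 was 2.39 to 4.28, 0.622 to 3.10 and 1.87 to 3.72. The share of Hoxa5 is not independent of its own values given above. These shares and ratios are descriptions and were not tested. How often ratios separate in this way was not computed, so nothing is read from these separations.

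In nanozyme against model lung, limma called 0 of 11 Hox genes and 0 of all 14540 genes (0%), with 3 of 11 and 22.1% at an unadjusted p under 0.05. Those 3 were Hoxa5, Hoxa7 and Hoxb7. The estimate was above 0 for 10 of 11, Hoxb7 included, with a median log2 change of 0.41 beside 0.09 over all genes. Without model replicate 2 these medians were 0.18 and 0.065. The share of all genes above 0 was not computed. The nanozyme values of Hoxa7 all lay above its model values, as did 10.6% of all genes, with 5.83% below (16.4% in all). Those of Hoxb7 did so too, but Hoxb7 was tested only because its 3 nanozyme values reached 1 FPKM, so its separation supports nothing. This comparison shares the model libraries with the first one, so a low model value enters both with opposite signs.

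Hoxa5 was at 34.6, 14.2 and 32.5 FPKM in nanozyme replicates 1 to 3, against 18.6, 6.84 and 15.8 FPKM in model lung. Nanozyme replicates 1 and 3 were above all normal values, and replicate 2 fell within the model range. Its log2 change was 0.94 ± 0.40 with a 95% interval from 0.02 to 1.86 (adjusted p = 0.221). Without nanozyme replicate 2 it was 1.33 and passed (adjusted p = 0.0316), in a fit that called 22.1% of all genes in place of 0%. Without model replicate 2 as well, it was 0.93 (adjusted p = 0.00507), with 23.0% of all genes called. With limma's sample weights the change was 0.98 and also passed (adjusted p = 0.0329, 20.9% of all genes called). No other Hox gene passed in any of the alternatives run on this comparison.

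Hoxa7 was at 3.64, 2.74 and 6.69 FPKM in nanozyme lung, above the 0.566 to 2.39 FPKM of the model, with the largest log2 change of the family (1.06 ± 0.42, interval 0.10 to 2.02, adjusted p = 0.199). Hoxb7, its paralogue, was at 1.31, 1.46 and 1.80 FPKM against 0.772 to 0.957 FPKM (0.42 ± 0.16, adjusted p = 0.190). Hoxb7 entered the test only through the nanozyme libraries, the only ones at 1 FPKM or more, so its higher values there were in part set by the filter and its p is given as a description. Unlike the other 10 genes, Hoxb7 did not have its lowest nanozyme value in replicate 2.

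For the other 8 genes the groups overlapped. Hoxa2 was at 4.19, 1.59 and 3.04 FPKM in nanozyme lung (0.50 ± 0.28, adjusted p = 0.318), Hoxa3 at 3.87, 2.09 and 4.17 FPKM (0.21 ± 0.29, 0.678) and Hoxa4 at 3.87, 2.09 and 3.25 FPKM (0.27 ± 0.20, 0.445). Replicates 1 and 3 of each were above the normal range, and replicate 2 was below it. Hoxb2 was at 7.62, 4.09 and 6.13 FPKM (-0.03 ± 0.19, adjusted p = 0.943), the only estimate below 0. Hoxb3 was at 4.002, 2.41 and 3.55 FPKM (0.41 ± 0.23, 0.313) and Hoxb4 at 3.95, 3.44 and 4.67 FPKM (0.12 ± 0.18, 0.727). Of the genes that were lower in model lung without overlap, Hoxb5 was at 4.27, 2.73 and 5.32 FPKM (0.43 ± 0.25, 0.334) and Hoxb6 at 3.19, 2.12 and 2.88 FPKM (0.33 ± 0.18, 0.293). In both, nanozyme replicate 2 lay within the range of the model libraries.

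**Figure D4:**
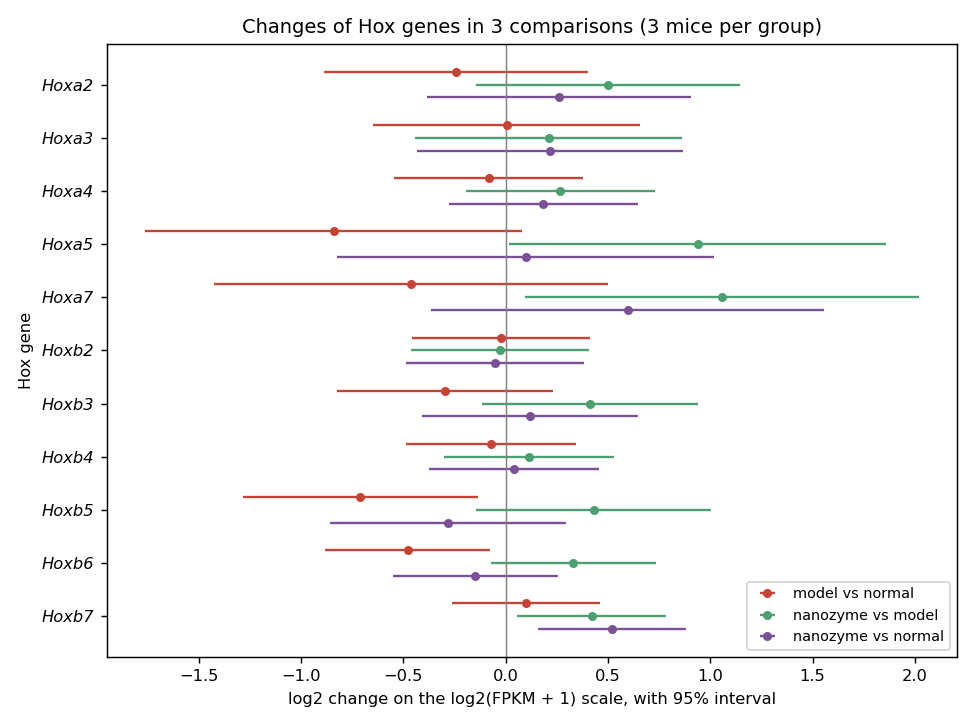
Log2 change of each expressed Hox gene on the log2(FPKM + 1) scale in the 3 comparisons, with 95% intervals from limma (3 mice per group). Intervals of single genes that leave out 0 (Hoxb5 and Hoxb6 for model vs normal, Hoxa5, Hoxa7 and Hoxb7 for nanozyme vs model, Hoxb7 for nanozyme vs normal) did not pass after adjustment over all genes.

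In nanozyme against normal lung, limma called 0 of 11 Hox genes, where 13.9% of all genes were called (8.39% higher and 5.5% lower). At an unadjusted p under 0.05 there was 1 of 11, Hoxb7, against 30.6% of all genes. The median log2 change, Hoxb7 included, was 0.12 beside -0.01 over all genes. The groups overlapped for the other 10 genes, and Hoxb7, which the filter kept only through its nanozyme values, was higher in nanozyme lung without overlap (0.52 ± 0.16, interval 0.16 to 0.88, adjusted p = 0.0625). Nothing is read from that separation. Of all genes, 22.1% were higher without overlap and 42.9% did not overlap in either direction. Hoxa5 gave 0.10 ± 0.40 (interval -0.82 to 1.02, adjusted p = 0.900). Without model replicate 2 and nanozyme replicate 2 its change was 0.49 and passed (adjusted p = 0.0341, with 19.3% of all genes called). Hoxb5 (-0.28 ± 0.25, adjusted p = 0.499) and Hoxb6 (-0.15 ± 0.18, 0.617) were below 0 here as well. The other 7 gave estimates from -0.05 (Hoxb2) to 0.60 (Hoxa7), with adjusted p from 0.383 to 0.905.

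The spread within groups was wider for Hox genes than for the typical gene. The median SD on the log2(FPKM + 1) scale was 0.14 for the 11 genes and 0.10 for all genes tested in normal lung, 0.36 and 0.22 in model lung, and 0.39 and 0.20 in nanozyme lung. Hoxb6 had the smallest SD in normal lung (0.04) and Hoxa7 the largest (0.66). Apart from Hoxa5, the means of the Hox genes were above those of 3.88% (Hoxb7) to 36.2% (Hoxb2) of tested genes. Spread was not compared at equal level. Replicate 2, lowest of its group for 10 of the 11 in both model and nanozyme lung, also enters these SDs. The wider spread is therefore not read as a trait of the family. Some values can hold reads of overlapping genes, since the strand setting of the counting is not given in the sources used here. In GENCODE vM21, 52.9% of the exon bases of Hoxb3 and 27.3% of those of Hoxb2 are shared with genes on the opposite strand, as are 25.4% for Hoxa3, 20.4% for Hoxa7, 16% for Hoxa4 and 3.6% for Hoxb5. Hoxa2 shares 15% and Hoxa3 8.0% with a gene model on the same strand, Gm28308. Hoxa5, Hoxb4, Hoxb6 and Hoxb7 share none. None of the 17 noncoding genes of the clusters that were looked for, such as Hotair, Hotairm1 and Mir10a, was found by symbol in the deposited table. They could therefore not be analysed.

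The partners of Hox proteins were all expressed. Of the 9 TALE cofactors, 2 were lower and 0 higher in the model against normal lung, with a median log2 change of -0.33, beside 22.7% lower and 17.4% higher of all genes tested, so that the share called lower was near that of all genes. Pbx3, a partner of Hox proteins, was at 7.41, 11.0 and 9.98 FPKM in normal and 6.44, 5.09 and 5.16 FPKM in model lung (-0.67 ± 0.19, adjusted p = 0.0253). The groups did not overlap. Its call ended with equal column sums (adjusted p = 0.0534), with no filter (0.0557) and without normal replicate 2 (0.0855), normal replicate 3 (0.0820), model replicate 2 (0.0701) or model replicate 3 (0.0702). In nanozyme lung Pbx3 was at 8.81, 5.9996 and 9.37 FPKM, between the other groups on average (8.06 ± 1.80 FPKM, SD, n = 3), and 0 of the 9 were called in either nanozyme comparison, beside 0% of all genes against model and 13.9% against normal lung.

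Retinoic acid genes, which act upstream of Hox expression in the embryo, were taken next. Of 19 listed, 13 were tested, and 8 of these were lower and 1 higher in the model, with a median log2 change of -0.57. Of all genes tested 22.7% were lower and 17.4% higher, with a median of -0.12. The list mixes genes of synthesis and breakdown with receptors. These counts therefore give no direction for retinoic acid itself, which was not measured. Aldh1a2, named after its values were seen, had an estimate above 0 and was not called (0.67 ± 0.64, limma adjusted p = 0.422). Aldh1a1, an enzyme that makes retinoic acid from retinaldehyde, was at 1216, 794 and 997 FPKM in normal and 250, 237 and 120 FPKM in model lung (-2.36 ± 0.43, adjusted p = 0.00427). Rarb, a retinoic acid receptor whose own gene is activated by retinoic acid, was at 5.98, 5.16 and 4.22 against 1.45, 0.985 and 0.766 FPKM (-1.57 ± 0.21, adjusted p = 0.00142). Rbp4, the retinol carrier, was at 25.8, 25.1 and 26.7 against 12.2, 9.19 and 6.08 FPKM (-1.45 ± 0.21, adjusted p = 0.00195). These 3 stayed past the threshold in every alternative that tested them. The single gene called higher, named after its values were seen, was Cyp26b1, which breaks retinoic acid down. It was at 0.896, 0.976 and 0.947 against 14.04, 2.27 and 9.10 FPKM (2.03 ± 0.58, adjusted p = 0.0248). No normal library reached 1 FPKM, so the filter kept Cyp26b1 only through model and nanozyme libraries, and its p is given as a description. The Cyp26b1 call ended with no filter (0.0688), without model replicate 1 or 3 (0.0712 and 0.0741) and without normal replicate 1, 2 or 3 (0.0668, 0.0600 and 0.0664). Against normal lung, 3 of the 13 were lower in nanozyme lung and 0 higher, beside 5.5% and 8.39% of all genes, Rarb (-1.15 ± 0.21, adjusted p = 0.0115) and Rbp4 (-1.14 ± 0.21, 0.0120) among them. The marker sums of epithelium and resident fibroblasts were lower in the model as well, and their part in these falls was not tested.

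**Figure D5:**
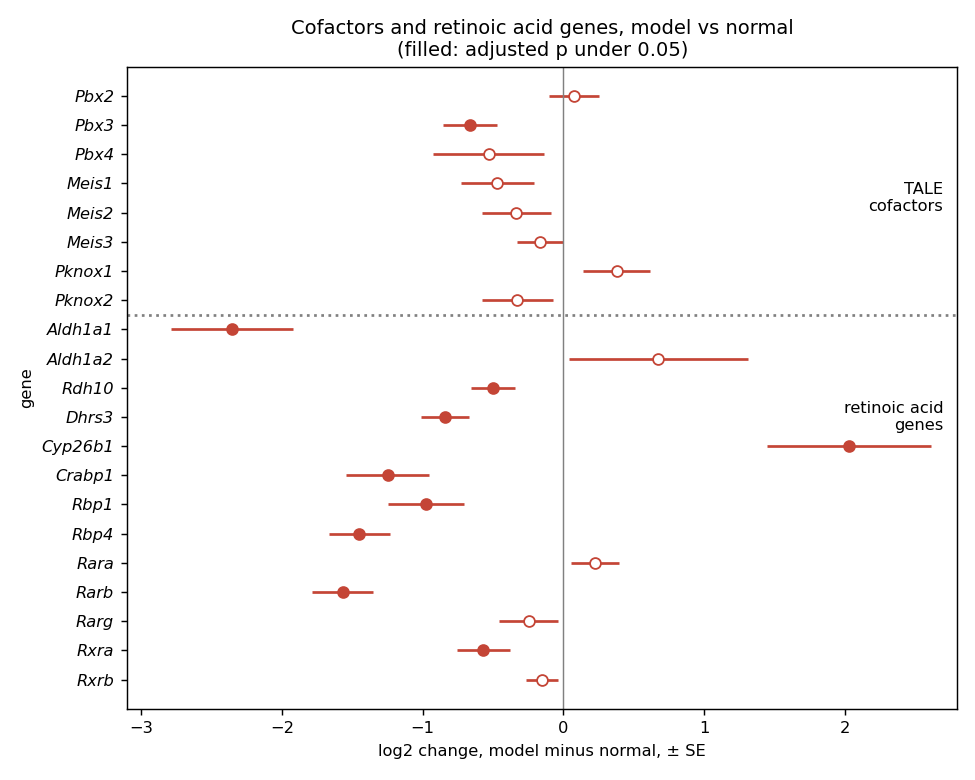
Log2 change ± SE of 8 TALE cofactors (upper) and 13 retinoic acid genes (lower) in model minus normal lung, on the log2(FPKM + 1) scale; filled points passed an adjusted p under 0.05. Of the cofactors shown 1 is filled and of the retinoic acid genes 9 are, with Cyp26b1 alone to the right of 0 among the filled points.

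Among chromatin regulators that maintain Hox states, 20 Polycomb genes were tested, and 8 were lower and 2 higher in the model (median log2 change -0.37), beside 22.7% lower and 17.4% higher of all genes. Cbx7, a subunit that reads the repressive histone mark, was at 19.2, 22.2 and 20.8 FPKM in normal and 13.3, 7.39 and 9.37 FPKM in model lung (-1.01 ± 0.26, adjusted p = 0.0162), a call that ended without normal replicate 2 (0.0509), normal replicate 3 (0.0502) or model replicate 2 (0.0521). Its relative Cbx6 fell by 0.89 ± 0.22 (adjusted p = 0.0133), as did Bmi1, a core subunit of the same complex, by 0.45 ± 0.11 (adjusted p = 0.0120), although the Bmi1 call ended with equal column sums (0.0605). The 2 that rose, named after their values were seen, were Ezh2, the methyltransferase of dividing cells, and Phf19 (0.38 ± 0.13, adjusted p = 0.0394, and 0.66 ± 0.17, 0.0171). The Ezh2 call ended under 9 alternatives, among them no filter (0.0522), the replicate block (0.0731) and the fits without normal replicate 1 or 2 (0.119 and 0.120), model replicate 1 or 3 (0.0996 and 0.0872) or nanozyme replicate 1 (0.0544). That of Phf19 ended without normal replicate 1 or 3 (0.0633 and 0.0595) or model replicate 1 (0.0520). Phf19 was at 0.476, 1.07 and 0.679 FPKM in normal lung, so the filter kept it through the other groups. Of 11 trithorax and demethylase genes 2 were lower and 0 higher (median -0.03), a share of lower genes near that of all genes. They were Dpy30 (-0.62 ± 0.15, adjusted p = 0.0136) and Kdm6a (-0.47 ± 0.15, adjusted p = 0.0347). The Dpy30 call ended with median-of-ratios scaling (0.0613) and without normal replicate 3 (0.0532). The Kdm6a call ended under 8 alternatives, among them equal column sums (0.132), without normal replicate 1, 2 or 3 (0.110, 0.0666 and 0.0808) and without model replicate 2 (0.0719). The caudal factors Cdx1, Cdx2 and Cdx4, activators of Hox genes in the embryo, were listed at 0 in all 9 libraries.

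Of 15 tested genes that flank the clusters, 4 were higher and 3 lower in the model, beside 17.4% and 22.7% of all genes, with a median log2 change of 0.09. Skap2, which flanks Hoxa and encodes an adaptor of myeloid cells, rose from 23.2, 26.4 and 26.4 to 41.3, 51.3 and 45.3 FPKM (0.83 ± 0.15, adjusted p = 0.00410). Skap1, the T cell adaptor beside Hoxb, rose by 0.94 ± 0.12 (adjusted p = 0.000973), and Nfe2, a blood cell factor beside Hoxc, by 1.47 ± 0.16 (adjusted p = 0.000618). These 3 are genes of blood cells, and the leukocyte marker sums were higher in model lung as well. Their part in these rises was not tested.

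Of 24 other transcription factors of lung mesenchyme, 20 were tested, with 6 lower and 2 higher in the model, beside 22.7% and 17.4% of all genes (median log2 change -0.48). Snai2 fell from 4.03, 5.46 and 5.01 to 1.63, 1.02 and 2.01 FPKM (-1.20 ± 0.26, adjusted p = 0.00832). Its relative Snai1, which like Snai2 represses epithelial adhesion genes, rose from 4.82, 6.36 and 6.69 to 14.9, 10.1 and 16.5 FPKM (1.08 ± 0.18, adjusted p = 0.00319), and Zeb2 rose by 1.18 ± 0.24 (adjusted p = 0.00644). In model lung the marker sums of resident fibroblasts were lower and those of leukocytes higher as well. The part of these cell types in the changes was not tested. Against normal lung 0 of these 20 were called in nanozyme lung, beside 13.9% of all genes, and against model lung 0% of all genes were called.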

How the data were processed

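Per the labels' protocols, RNA of whole lung was extracted with TRIzol, selected with oligo(dT) beads and made into libraries whose second cDNA strand was marked. The aligner was HISAT2 and the build GRCm38, per the submitters' processing notes. The counting tool, its strand setting, the annotation and versions are not given in the sources used here. The authors deposited 1 table of FPKM values, with 1 column per library. No counts were used here. Low values of one library divided by those of another fell on no clear steps that whole reads would leave (at most 12.6% of the quotients in the fullest bin), so depth is unknown. Column sums ran from 443746 to 519772.

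Genes that reached 1 FPKM in 3 or more of the 9 libraries were tested on log2(FPKM + 1) with limma 3.58.1 (R 4.3.3): 1 fit of all libraries, 1 coefficient per group, an intensity trend, two-sided tests, and Benjamini-Hochberg adjustment over the 14540 genes of each comparison at 0.05. Changes are log2 changes ± SE, which understate the change of low genes. The test was checked on simulated data. Each library was taken as 1 mouse. The Hox genes and the lists were chosen with earlier results of these data known. Hox genes were named, and of each list up to 3 called genes with the smallest adjusted p for model vs normal, or the 2 with the highest mean where none was called. Alternatives were another pseudocount, no filter or a filter at a mean of 5 FPKM, 3 scalings, 2 groups only, no trend, a replicate block, weights per sample, a 2-fold minimum, and fits without each library in turn. No batch is labelled. Some items are not reported here. Sequences are from RefSeq, coordinates from GENCODE vM21. Figures used matplotlib 3.10.9.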

Additional observations from a re-analysis of the deposited data

How the results depend on the processing

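The count of called Hox genes was 0 in each comparison and moved under a few alternatives. For model vs normal it was 1 with only the 2 groups compared, 1 with the replicate block and 2 with sample weights, all lower in model lung, and 0 to 2 when libraries were left out. For nanozyme vs model it was 1 with sample weights and 0 to 1 when libraries were left out. For nanozyme vs normal it was 1 without the intensity trend (Hoxb7) and 4 with sample weights (Hoxa2, Hoxa3, Hoxa7 and Hoxb7). It was 0 to 1 there when libraries were left out. Hoxb7 was tested only through its nanozyme values, so nothing is read from its calls. With the block, Hoxb6 gained a call (adjusted p = 0.0429) and the regulator Ezh2 lost its call (0.0731), both for model vs normal, and no other named gene changed sides. Deviations of same-numbered libraries correlated between -0.33 and 0.23, and those of differently numbered ones between -0.36 and 0.38. Deviations from means of 3 libraries cannot decide whether the replicate numbers pair the mice, so pairing is unknown. The number of expressed genes was 3 at a threshold of 5 FPKM. Of 633 values of single Hox genes under alternatives, 576 kept their direction and side of the threshold, 19 newly passed and 38 changed sign, none of them past the threshold where the sign had changed.

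For model vs normal, Hoxa3 was -0.017 with a pseudocount of 0.1, and Hoxb2 was 0.043 with equal column sums. Median-of-ratios scaling, which moved the median of all genes from -0.12 to 0.01, gave 0.018 for Hoxa4, 0.10 for Hoxb2 and 0.040 for Hoxb4. Quantile normalization gave 0.014, 0.050 and 0.023 for the same genes, and sample weights gave 0.044 for Hoxb2, 0.11 for Hoxb4 and -0.00034 for Hoxb7. Leaving out libraries gave ranges of -0.26 to 0.26 for Hoxa3, -0.17 to 0.085 for Hoxa4, -0.087 to 0.053 for Hoxb2, -0.23 to 0.11 for Hoxb4 and -0.039 to 0.18 for Hoxb7. For nanozyme vs model, Hoxb4 was -0.0086 with quantile normalization and Hoxb2 0.040 with sample weights, and the ranges were -0.20 to 0.18 for Hoxb2, -0.040 to 0.48 for Hoxa3 and -0.068 to 0.27 for Hoxb4. For nanozyme vs normal, Hoxb2 was 0.0057 with equal column sums and 0.083 with sample weights, and the ranges were -0.22 to 0.16 for Hoxb2, -0.12 to 0.49 for Hoxa5 and -0.049 to 0.13 for Hoxb4. The cause was not tested. Depth is unknown, which limits what can be said of Hox genes listed at 0.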
